A study of Mus musculus with 8 samples.

Results

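Purine and pyrimidine nucleotides are built from small precursors by 2 chains of enzymes. The purine chain starts from phosphoribosyl pyrophosphate (PRPP), and the pyrimidine chain starts by making carbamoyl phosphate. Resting T cells rely largely on salvage of bases and nucleosides, and activated T cells switch on the de novo chains before they divide. The genes of these chains are known targets of the transcription factor MYC. Ppat, Gart, Pfas, Paics, Adsl and Atic encode the purine chain up to inosine monophosphate (IMP). Cad and Umps encode the first and the last steps of the chain to uridine monophosphate (UMP), and Ctps encodes CTP synthase 1, which turns UTP into CTP. These genes and Impdh2 were chosen by name, as all probe sets with 1 of these 10 symbols as their single gene symbol. Of the 10 genes 9 were measured, out of 18193 genes with a named probe set, and Impdh2 was not analysed here. All 9 passed the filter on dim genes, among 12091 genes tested.

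The study asked how db-cAMP, a form of cyclic AMP that enters cells, acts on activated T cells with and without the receptor of interferon-γ. CD4 T cells were isolated with magnetic beads from the spleens of wild-type (WT) mice or of mice lacking IFN-γ receptor 1 (IFN-gR1 KO, here KO), all aged 8 weeks. Cells of all 4 groups were stimulated for 15 h with antibodies to CD3 and CD28, and db-cAMP or vehicle was present for the final 3 h. Each genotype thus has a vehicle and a db-cAMP group, and each of the 4 groups holds 2 arrays. The titles number the arrays as biological replicates without naming mice or cultures, and the p-values therefore cover the spread between these arrays, which may be technical. Titles, source names and genotype entries give 4 arrays as KO, but the description field of the same arrays says WT. The genotype entries were followed here. On the arrays so labelled KO the signal of Gbp2 was 480 and 384 with vehicle and 606 and 678 with db-cAMP. On the WT arrays it was 6960 and 8103 with vehicle and 24290 and 25753 with db-cAMP. The sources used here give neither the strain nor which part of the gene was deleted.

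Values are linear MAS5 signals of Affymetrix probe sets, scaled so that the middle 96% of each array had a mean of 500. Replicate arrays correlated at 0.961 to 0.977 over log2 signals. Ifngr1 signals, whose probe set may or may not lie in the deleted part, were 905 and 873 in WT with vehicle, 7319 and 8201 in WT with db-cAMP, and 439 and 378 against 1056 and 1272 in KO cells. The summed signal of 6 CD4 T cell markers ranged from 63920 to 71960 over the 8 arrays, though Cd4 itself stood low, at 253 to 539. With db-cAMP 4 of the 6 were called in WT cells, Cd3e (-0.42), Cd3g (-0.32) and Cd5 (-0.25) lower and Cd28 (0.35) higher, and in KO cells Cd28 alone (0.39). Of the B cell list only Ighm was high, and it fell with db-cAMP in WT cells (log2 change -1.04 ± 0.1, limma adjusted p = 1.85e-06). That list's sum, over 6 markers of which 1 was called, was 10000 to 11300 in WT with vehicle, 5335 to 5849 in WT with db-cAMP, and 8572 to 9337 against 7525 to 8529 in KO cells, while Cd79a stood at 7.57 to 54.7 and Pax5 at 18.9 to 90.5. The sum of 4 NK cell markers was 472.8 to 603 in WT with vehicle and 906.8 to 1045 in WT with db-cAMP, and 557.9 to 604.5 against 1192 to 1198 in KO cells, with Ncr1 at 4.57 to 35.7. Of its 2 tested genes Klrd1 was called higher in both genotypes (0.83 in WT and 1.18 in KO cells) and Klrc1 in WT cells (1.23; 0.84 in KO cells, not called). The CD8 T cell, macrophage and neutrophil, and dendritic cell lists summed to at most 575.5 and had no gene called with db-cAMP in either genotype. Under vehicle Cd3d (-0.39), Cd3g (-0.31) and Cd8b1 (-0.92) were lower and Cd28 (0.3) higher in KO than in WT cells. Under db-cAMP Cd3d (-0.48), Cd8b1 (-0.89), Cd79b (-1.28) and Ms4a1 (-0.76) were lower, and Cd3e (0.27), Cd5 (0.56), Cd28 (0.34) and Ighm (0.64) higher. The interaction was called for Cd3e (0.5), Cd5 (0.44) and Ighm (0.89). The summed signal of added poly-A control transcripts was 1019 and 1109 in WT with vehicle, 1250 and 1486 in WT with db-cAMP, and 3355 and 3007 against 4238 and 3507 in KO cells. The summed signal of 18S ribosomal RNA probe sets was higher with db-cAMP in both genotypes, at 28574 and 25511 against 37627 and 36892 in WT cells and 24553 and 26853 against 38701 and 31397 in KO cells. The part of these markers and controls in the results that follow was not tested. In such bulk samples, fewer cells of a type and less RNA per cell cannot be told apart.

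In WT cells, db-cAMP lowered 8 of the 9 nucleotide synthesis genes and raised none within 3 h. Ppat, Pfas and Ctps fell the most, to 39.1%, 38.8% and 39.3% of their vehicle means. Gart, Cad and Adsl stood at 61.1% to 65.2%, and Atic, Umps and Paics at 74.2% to 87.2%. Among all genes tested 18.6% were called lower in this comparison and 35% in either direction. The median log2 change of the 9 genes was -0.65, against 0.01 over all genes tested. Calls are limma adjusted p-values under 0.05, and each ± is a standard error of the fit.

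Ppat encodes PRPP amidotransferase, which commits PRPP to the purine chain and is inhibited by its end products. Its signal was 3863 and 3627 on the WT vehicle arrays and 1453 and 1473 on the WT db-cAMP arrays. The vehicle arrays were both far above the db-cAMP arrays, and the log2 change was -1.35 ± 0.08 (95% interval -1.53 to -1.18, limma adjusted p = 2.73e-08), which is 2.55-fold lower.

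Gart encodes a trifunctional protein that carries out several of the early steps. Its signal was 4573 and 4858 with vehicle and 2805 and 2959 with db-cAMP. The groups lay well apart, at a log2 change of -0.71 ± 0.08 (limma adjusted p = 1.32e-05).

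Pfas, the glutamine-using synthase of the chain, read 2237 and 2310 with vehicle and 900 and 866 with db-cAMP. This was the largest fall among the 9 genes, with a log2 change of -1.36 ± 0.1 (95% interval -1.57 to -1.15, limma adjusted p = 1.24e-07), although it differed from those of Ppat and Ctps by less than its standard error.

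Paics encodes a bifunctional enzyme that acts later in the chain. It read 16042 and 17791 with vehicle and 14783 and 14706 with db-cAMP. Both db-cAMP arrays were below both vehicle arrays, but the log2 change of -0.2 ± 0.07 had a limma adjusted p of 0.0502 and missed the threshold. It passed under 5 of 19 alternative settings, among them quantile normalization (0.00115) and the fit without WT vehicle replicate 1 (0.0294).

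Adsl encodes adenylosuccinate lyase, which acts once in the chain to IMP and again in the branch to AMP. Its signal was 5463 and 5398 with vehicle and 3518 and 3566 with db-cAMP, and the replicates of each group were close together compared with the gap between the groups. The log2 change was -0.62 ± 0.07 (limma adjusted p = 1.73e-05).

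Atic, the bifunctional enzyme that closes the ring of IMP, read 4167 and 4860 with vehicle and 3198 and 3503 with db-cAMP. The groups did not overlap, and the log2 change was -0.43 ± 0.1 (limma adjusted p = 0.00582). Without WT vehicle replicate 2 the call was lost (adjusted p = 0.0707), as it was without the intensity trend (0.08).

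In the pyrimidine chain Cad encodes the trifunctional enzyme of the first 3 steps, a target of growth signalling. Its signal was 3357 and 3844 with vehicle and 2205 and 2362 with db-cAMP, a log2 change of -0.65 ± 0.12 (limma adjusted p = 0.000984). The groups were separate, and the call was lost only with the mean of the probe sets (0.0519).

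Umps encodes the bifunctional UMP synthase of the last 2 steps. It read 4078 and 3543 with vehicle and 3097 and 3342 with db-cAMP. The log2 change of -0.24 ± 0.09 was just past the threshold (limma adjusted p = 0.0443) and passed in 5 of 19 alternatives. Of the 8 fits that left out 1 array, only that without WT vehicle replicate 2 kept the call. The values were 0.337 without WT vehicle replicate 1, 0.208 and 0.052 without WT db-cAMP replicates 1 and 2, and 0.0543 to 0.0636 without any 1 of the 4 KO arrays.

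Ctps is the last gene of the set and makes CTP for RNA and phospholipid synthesis. Its signal was 3176 and 2961 with vehicle and 1183 and 1229 with db-cAMP. No array of one group came near the other, and the log2 change was -1.34 ± 0.09 (95% interval -1.53 to -1.16, limma adjusted p = 5.03e-08).

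All 9 genes were lower on both db-cAMP arrays than on both vehicle arrays of WT cells, a pattern that 30.9% of all genes tested showed. For Ppat, Gart, Adsl, Pfas and Ctps the call held under all 19 alternatives. The fall was unequal along the purine chain. Ppat and Pfas stood at 39.1% and 38.8% of vehicle on the linear scale, while Paics, which acts between Pfas and Adsl, stood at 87.2%. By size, Ppat, Pfas and Ctps were ranks 391 to 408 from the lowest log2 change among 12091 genes, and Paics was rank 4331.

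**Figure D1:**
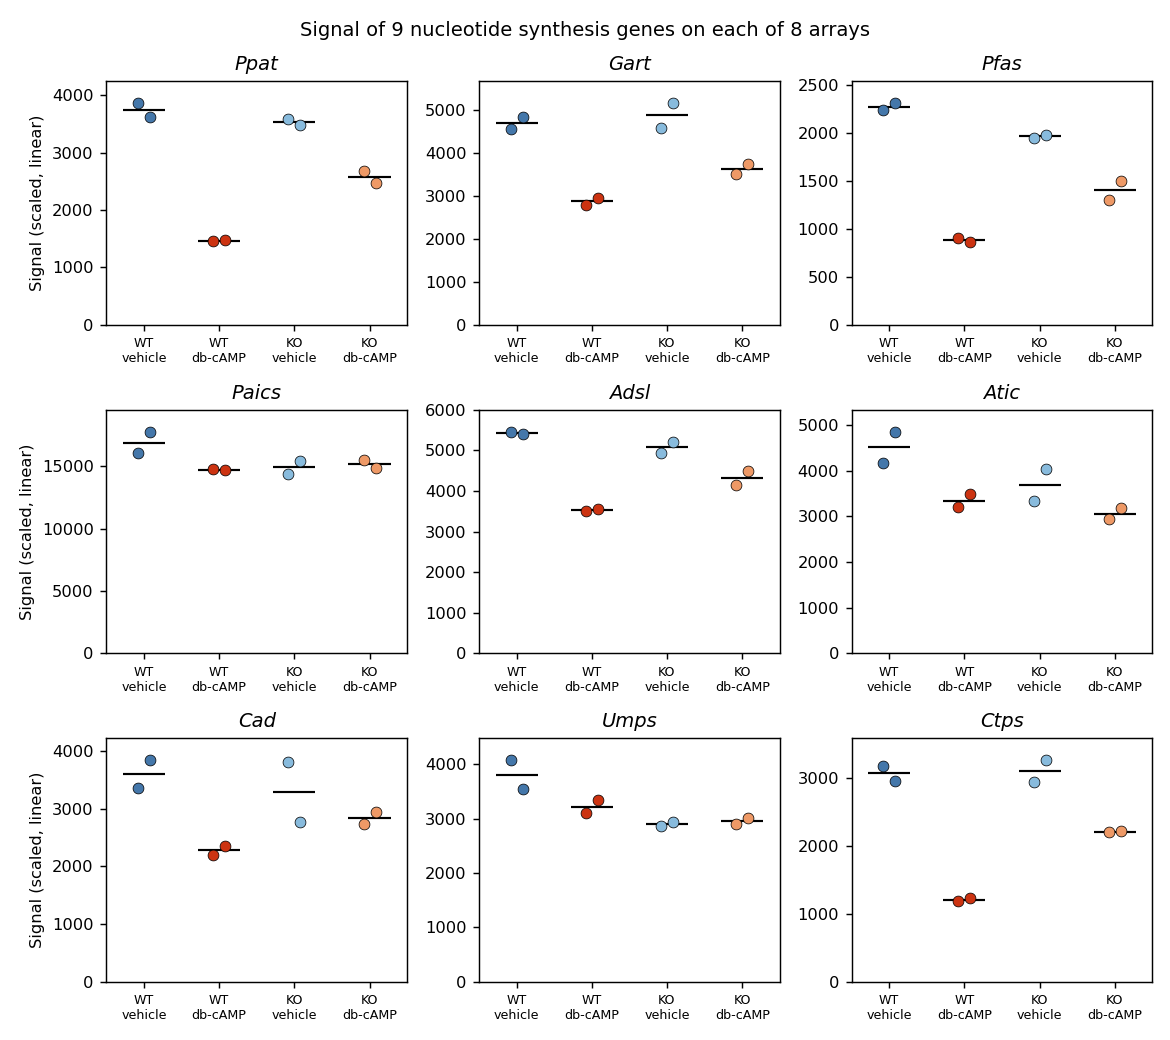
Signal of each of the 9 measured genes (vertical axis, scaled linear MAS5 signal from 0) on the 8 arrays, in 4 groups of 2; points are arrays and the line is the group mean. Ppat, Pfas and Ctps drop the most with db-cAMP in WT cells and lie between the WT groups in KO cells with db-cAMP, while Paics stays within 14425 to 17791 throughout.

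In KO cells db-cAMP lowered 4 of the 9 genes, Ppat, Gart, Pfas and Ctps, and raised none. The 4 stood at 71.3% to 74.3% of their vehicle means. Among all genes tested 3.68% were called lower in KO cells, 4.7% higher and 8.38% in either direction, with 568 higher and 445 lower, or 447 higher and 585 lower after scaling arrays to an equal 75th percentile. The median of the 9 was -0.26, against 0 over all genes tested.

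Ppat read 3594 and 3478 with vehicle and 2685 and 2467 with db-cAMP (log2 change -0.46 ± 0.08, limma adjusted p = 0.00287). Pfas read 1952 and 1975 with vehicle and 1304 and 1503 with db-cAMP (-0.49 ± 0.1, limma adjusted p = 0.0059). Ctps read 2939 and 3262 with vehicle and 2207 and 2212 with db-cAMP (-0.49 ± 0.09, limma adjusted p = 0.00283). In each of these 3 genes the KO db-cAMP arrays were below the KO vehicle arrays and above the WT db-cAMP arrays. Gart read 4601 and 5170 with vehicle and 3520 and 3740 with db-cAMP (-0.43 ± 0.08, limma adjusted p = 0.0052).

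Several KO calls depended on single arrays. Gart and Pfas lost theirs without KO vehicle replicate 2 (0.0753 and 0.0542) or without KO db-cAMP replicate 1 (0.0732 and 0.0957), and Ppat without KO db-cAMP replicate 2 (0.055). With the mean of probe sets Ppat stood at -0.71 (adjusted p = 0.199) and Gart at -0.2 (0.322), neither called. The count of genes called then fell to 2 without KO vehicle replicate 2 or KO db-cAMP replicate 1. None of the 4 was called when the variances were moderated without an intensity trend (0.0876 to 0.124). Of the other genes, Adsl read 4948 and 5209 with vehicle and 4151 and 4498 with db-cAMP, and Atic 3335 and 4036 against 2940 and 3186. Their groups did not overlap, but neither change passed (Adsl -0.23, limma adjusted p = 0.0732; Atic -0.26, limma adjusted p = 0.166). Paics, Cad and Umps overlapped between vehicle and db-cAMP. Cad, at -0.2 ± 0.12, read 3807 and 2777 on its 2 vehicle arrays, the widest replicate gap among the 9 genes in KO cells, against 2733 and 2944 with db-cAMP. For Paics the 95% interval of the KO change was -0.13 to 0.18 and for Umps -0.16 to 0.21. All 4 arrays of KO cells read 14425 to 15550 for Paics and 2868 to 3010 for Umps. Of the 9 genes 6 were lower on both KO db-cAMP arrays than on both KO vehicle arrays, a pattern that 26.2% of all genes tested showed.

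**Figure D2:**
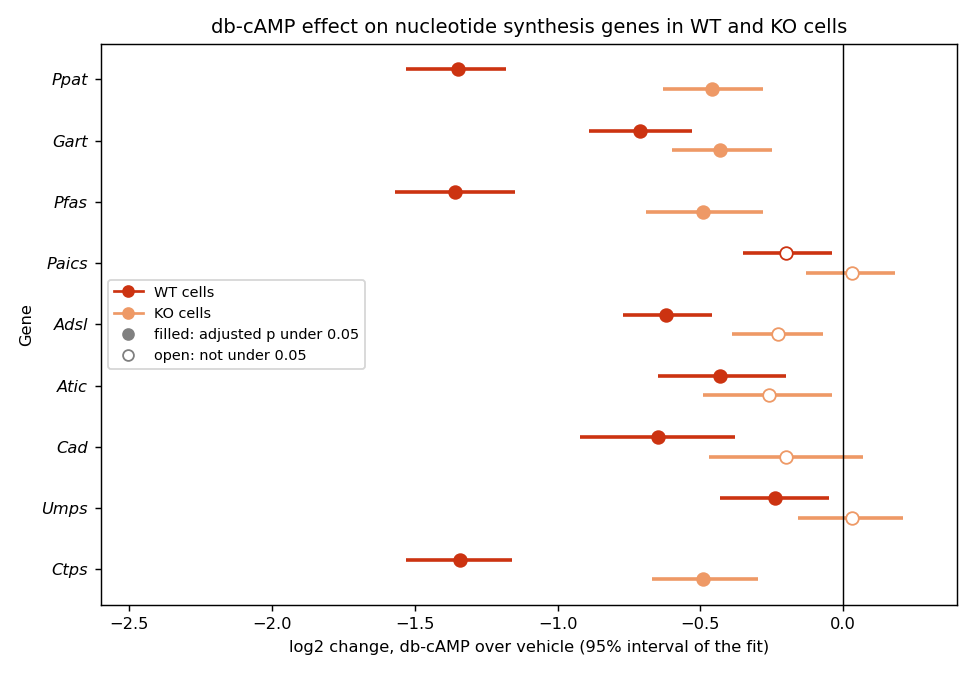
Log2 change with db-cAMP (horizontal axis) for the 9 genes, in WT cells (red) and KO cells (orange), with the 95% interval of the fit; filled points had an adjusted p under 0.05. In WT cells 8 of 9 are filled and in KO cells 4 of 9, and the intervals of Ppat, Pfas and Ctps in the 2 genotypes do not overlap.

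The difference between the 2 effects was tested as an interaction, the KO log2 change minus the WT log2 change. It was called for 4 of the 9 genes, all above 0, where 11.8% of all genes tested were called, 6.7% above 0 and 5.09% below 0. The values were 0.9 ± 0.11 for Ppat (limma adjusted p = 0.000264), 0.87 ± 0.13 for Pfas (0.00101), 0.86 ± 0.12 for Ctps (0.000544) and 0.38 ± 0.1 for Adsl (0.0288). In KO cells the log2 change of Ppat, Pfas and Ctps was 0.34 to 0.36 of that in WT cells. The call on Adsl was lost without any 1 of the 4 WT arrays, without KO vehicle replicate 1 and without KO db-cAMP replicate 2 (0.0572 to 0.142). The call on Ppat was lost with the mean of its probe sets (0.2, adjusted p = 0.847), which takes in a probe set whose highest signal was 40.8. For Gart the interaction was 0.28 ± 0.12 (limma adjusted p = 0.152), and its 95% interval of 0.03 to 0.53 does not show that the 2 effects were alike. Cad stood at 0.46 ± 0.18 (0.126) and rose past the threshold, at 0.68 (0.013), without KO vehicle replicate 1. By their main probe sets Paics, Umps and Atic stood at 0.22, 0.27 and 0.17, with limma adjusted p-values of 0.206, 0.2 and 0.564. All 9 values were above 0, where the median over all genes tested was 0.01, and stayed so under the 18 alternatives, which reuse the same arrays. The interaction subtracts the WT change, which was below 0 in all 9 genes, so its sign is not a result separate from that fall. The comparisons share arrays, so their counts are not independent of each other. The poly-A controls, at 1019 to 1486 on the WT arrays and 3007 to 4238 on the KO arrays, also differed by genotype, and their part was not tested.

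With vehicle alone, 1 of the 9 genes differed between KO and WT cells by its main probe set. Among all genes tested 10.8% did (5.78% lower and 5.06% higher). Umps was lower in KO cells, at 2868 and 2935 against 4078 and 3543 (log2 difference -0.39 ± 0.09, limma adjusted p = 0.0107). It lost the call without WT vehicle replicate 1 (0.107) or KO vehicle replicate 1 (0.0737), and with the mean of its probe sets (-0.2, adjusted p = 0.686). The other 8 lay between -0.29 and 0.05 by their main probe sets. In the fit of all probe sets, further ones of Umps stood at -0.05 and -0.64, not called (limma adjusted p = 0.89 and 0.217). Further ones of Paics stood at -0.23 (0.0654, not called) and -0.53 (0.00449, called lower). For Ppat the 95% interval was -0.26 to 0.09 and for Ctps -0.17 to 0.2. Scaling to an equal 75th percentile called 3 of the 9, adding Paics (-0.27, 0.0344) and Atic (-0.39, 0.0249). That scaling turned the split of all calls from 612 higher and 699 lower to 402 higher and 1177 lower, and moved the median of all genes to -0.1. With the replicate number as a block 2 were called, with Atic at an adjusted p of 0.0324.

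With db-cAMP, 5 of the 9 genes were higher in KO than in WT cells by their main probe sets, and none was lower. Among all genes tested 15.9% were called higher, 13.3% lower and 29.2% in either direction. Ctps stood at 2207 and 2212 against 1183 and 1229 (log2 difference 0.87 ± 0.09, limma adjusted p = 5.83e-06), 1.83-fold higher. Ppat stood at 2685 and 2467 against 1453 and 1473 (0.81 ± 0.08, limma adjusted p = 6.32e-06), and Pfas at 1304 and 1503 against 900 and 866 (0.66 ± 0.1, limma adjusted p = 0.000153). Neither replicate of the KO group came near the WT group in these 3 genes. With the mean of its probe sets the difference of Ppat was 0.31 and not called (adjusted p = 0.467). The differences of Gart (0.33 ± 0.08, limma adjusted p = 0.00739) and Adsl (0.29 ± 0.07, 0.00927) were smaller. Both were lost after scaling to an equal 75th percentile (0.0797 and 0.13), which left 3 genes called, moved the median of all genes to -0.12 and turned the split of all calls from 1926 higher and 1603 lower to 1371 and 2243. Gart also lost its call without KO db-cAMP replicate 2 (0.078) or WT db-cAMP replicate 1 (0.0502), and Adsl without KO db-cAMP replicate 2 (0.114), where 3 of the 9 were called. Cad gained a call without KO vehicle replicate 1 or 2 (0.0222 and 0.0215).

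The 9 genes had 22 probe sets, of which 19 passed the filter on dim signals. The other 3, 1 each of Ppat, Cad and Umps, read at most 55.9 on any array. The 19 were tested in a fit of all 26527 probe sets that passed. In WT cells all 19 had log2 changes below 0 and 16 were called lower, against 13.4% of all probe sets. In KO cells 15 were below 0 and 5 were called lower, against 1.87%, and the interaction was above 0 in all 19 and called in 6, against 3.76%. Probe sets of 1 gene share its transcripts and are not replicates. Here too the sign of the interaction is not separate from the fall in WT cells, which it subtracts. Ppat's second probe set read 1732 and 2004 with vehicle and 872 and 1046 with db-cAMP in WT cells, a log2 change of -0.96 against -1.35 for the main one. The 3 further probe sets of Gart lay at -0.54 to -0.8 in WT cells, around the main value of -0.71, and the other 2 of Paics at -0.24 and -0.39. Both of these Paics probe sets were called lower (limma adjusted p = 0.0277 and 0.0123), where the main one was not (0.0735).

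In Umps, Cad and Atic the probe sets differed in size or in sign. The second probe set of Umps read 1667 and 1488 with vehicle and 1016 and 742 with db-cAMP in WT cells, and 1438, 1604, 1307 and 1445 on the 4 KO arrays. It fell more than the main one in WT cells (-0.86 against -0.24). With db-cAMP it was higher in KO than in WT cells (0.66, limma adjusted p = 0.00345). There the main probe set stood at -0.12 and another at -0.44, neither called. Its interaction of 0.71 was called (limma adjusted p = 0.0486), where that of the main one, at 0.27, was not. The second probe set of Cad read 1997 and 2192 against 1085 and 1193 in WT cells and 2331, 2124, 2063 and 2295 in KO cells. Its interaction of 0.84 was called (limma adjusted p = 0.00322), where that of the main probe set, at 0.46, was not. It was also higher in KO than in WT cells with db-cAMP (0.93, limma adjusted p = 2.1e-05), where the main one, at 0.31, was not called. The second probe set of Atic read 757 and 664 in WT with vehicle, 487 and 471 in WT with db-cAMP, and 1461 and 1375 against 995 and 1126 in KO cells. It was higher in KO than in WT cells under vehicle (0.99, limma adjusted p = 0.000143) and under db-cAMP (1.14, 1.7e-05), while the main probe set stood at -0.29 and -0.13. The direction of the genotype difference of Atic, and of Umps under db-cAMP, is therefore not settled. Both probe sets of Atic fell with db-cAMP in WT cells (-0.56 and -0.43).

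**Figure D3:**
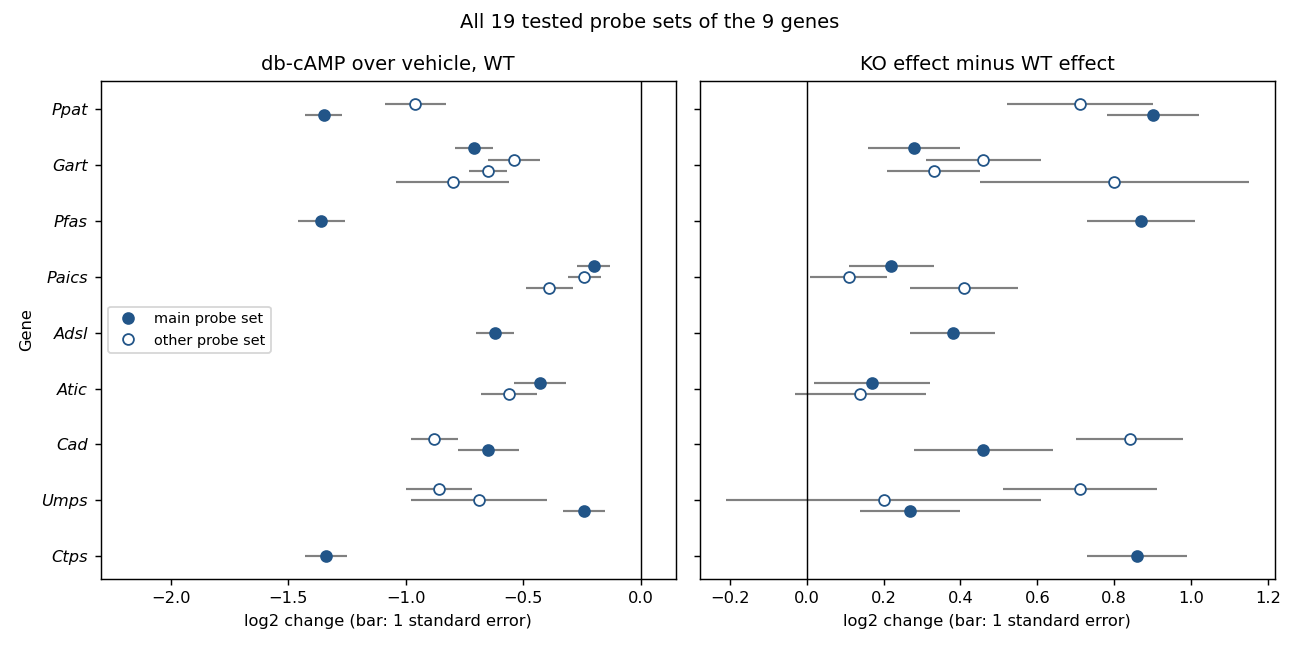
Log2 change of each of the 19 tested probe sets (horizontal axis; bar, 1 standard error) for db-cAMP over vehicle in WT cells (left) and for the KO effect minus the WT effect (right); filled points are the main probe sets. All 19 lie below 0 on the left and above 0 on the right, and on the left those of Umps spread the most, from -0.86 to -0.24.

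The start regions of the genes are shown because the genes moved together and are known MYC targets, and because cyclic AMP acts on many promoters through the factor CREB. RefSeq windows of 250 bases before to 50 after the start (GRCm38.p6) were given for 8 of the 9 genes, with 2 windows for Ctps, and none for Pfas. The motifs searched on both strands were CACGTG, the E-box bound by MYC with MAX, TGACGTCA, the full CRE bound by CREB, and TGACG, its shorter form, which is also part of TGACGTCA. CACGTG was in the windows of Paics and Atic, 2 of 8 genes, and in 7.15% of all 32851 windows. TGACGTCA was in that of Umps, and in 1.79% of all windows. TGACG was in those of Ppat, Gart, Cad, Umps and the second of Ctps, 5 of 8 genes, and in 20.8% of all windows. The stretches of 30 bases around the matches in the first windows are given on the gene's strand, with the motifs in capitals; Cad has 2 matches.
Paics, chr5:76951087-76951116, plus strand: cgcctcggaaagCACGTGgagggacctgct
Atic, chr1:71557137-71557166, plus strand: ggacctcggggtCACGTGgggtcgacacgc
Umps, chr16:33967017-33967046, minus strand: ggacttctgggTGACGTCAcgggccccaag
Ppat, chr5:76951591-76951620, minus strand: gcgcaggcgcgcTGACGcgaccccgcttcc
Gart, chr16:91647121-91647150, minus strand: agtgacagccccTGACGagcatcatcagct
Cad, chr5:31054729-31054758, plus strand: ccTGACGtgcccggccccgccccTGACGtt

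The genes with CACGTG in this window were Paics and Atic, at 87.2% and 74.2% of vehicle in WT cells, and the other 6 genes with a window had none there. These were Ppat and Ctps at 39.1% and 39.3%, Gart, Cad and Adsl at 61.1% to 65.2%, and Umps at 84.5%. Whether the motif goes with the size of the fall was not tested, and only 2 genes hold it. The CACGTG of Paics, 203 bases before its own start, also lies downstream of the Ppat start, outside the Ppat window. The 250 bases before the start of Ctps (first window) and of Atic are given as a gene without and a gene with this motif. The Atic sequence holds CACGTG 7 bases before the start, in capitals, and the Ctps sequence none of the 3 motifs.
Ctps, chr4:120570277-120570526, minus strand: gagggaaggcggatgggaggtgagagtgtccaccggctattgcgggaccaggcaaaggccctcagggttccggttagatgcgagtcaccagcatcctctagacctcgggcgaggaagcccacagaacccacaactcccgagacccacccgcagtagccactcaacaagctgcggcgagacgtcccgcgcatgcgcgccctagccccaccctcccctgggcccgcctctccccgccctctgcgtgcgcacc
Atic, chr1:71556906-71557155, plus strand: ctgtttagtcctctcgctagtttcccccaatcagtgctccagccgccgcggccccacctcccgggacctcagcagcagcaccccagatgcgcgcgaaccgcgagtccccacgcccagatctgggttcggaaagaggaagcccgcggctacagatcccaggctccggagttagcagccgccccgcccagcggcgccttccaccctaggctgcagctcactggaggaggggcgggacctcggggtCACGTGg

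Ppat and Paics lie on opposite strands of chromosome 5, with starts 276 bases apart. Each is read towards the other's start, so that their first 277 bases overlap. Ppat stood at 39.1% and Paics at 87.2% of vehicle in WT cells, so that 2 genes with overlapping start regions had unequal changes. A match is a description of the letters, and the absence of one says only that they are not in this window.

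Around these 9 genes, 9 further lists of nucleotide metabolism and its supply were described by their counts in WT cells, against the same 18.6% lower and 16.4% higher over all genes tested. Of 11 other enzymes from PRPP to the nucleotides, 6 fell and 2 rose, with a median of -0.22. The 2 became 1 without WT db-cAMP replicate 1 or WT vehicle replicate 1. Dhodh, which makes orotate between the steps of Cad and Umps, read 1496 and 1384 with vehicle and 561 and 496 with db-cAMP in WT cells, and 1418, 1468, 941 and 1050 on the KO arrays. Its WT change of -1.44 ± 0.11 (limma adjusted p = 2.9e-07) was larger than that of either neighbour in the chain. Adss, which starts the branch from IMP to AMP, fell by 0.75 on the log2 scale in WT cells. Prps1l3, named as a PRPP synthetase gene, fell by 1.11 and Prps2, which makes PRPP, by 0.38. Prps1, another PRPP synthetase gene, stood at -0.24 and Gmps, which makes GMP, at -0.22, and both lost their calls without any 1 of the 4 WT arrays (0.0622 to 0.158 and 0.0559 to 0.107). Impdh1, the paralogue of Impdh2 in the branch to GMP, stood at -0.21 with an adjusted p of 0.287.

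Ctps2, which encodes the second CTP synthase, moved opposite to Ctps. Its main probe set read 749 and 829 with vehicle and 3080 and 2842 with db-cAMP in WT cells, and 1017 and 988 against 1616 and 1703 in KO cells. The log2 change was 1.9 ± 0.1 in WT cells (limma adjusted p = 6.39e-09) and 0.72 ± 0.1 in KO cells (0.000338), with an interaction of -1.18 ± 0.14 (0.00013). Its 2 other probe sets read 109 at most on any array and were not called. With the mean of the 3 probe sets the WT change of Ctps2 was 0.78 and lost its call (adjusted p = 0.0582), and the interaction was 0.33, so that both calls rest on the bright probe set.

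The supply of one-carbon units was the list with the largest share of falls in WT cells, 11 of 13 with none higher (8 to 11 when 1 array was left out), at a median of -0.58. Purine synthesis uses these units at the steps of Gart and Atic. Slc25a32, the mitochondrial folate carrier, read 2164 and 2189 with vehicle and 665 and 654 with db-cAMP, a log2 change of -1.71 ± 0.1 (limma adjusted p = 1.86e-08). Shmt1, the cytosolic serine hydroxymethyltransferase, fell by 1.65 and Slc19a1, the reduced folate carrier, by 1.37. Shmt2, Mthfd1 and Mthfd2, the mitochondrial and cytosolic enzymes that make and carry formyl units, fell by 0.88, 0.58 and 0.42. Mthfd2l stood at -0.9 and lost its call without WT db-cAMP replicate 2 (0.0988) or WT vehicle replicate 1 (0.113). In KO cells 3 of the 13 fell (1 to 5 when 1 array was left out), where 3.68% of all genes tested were called lower. Slc25a32, at 1934 and 1813 against 1104 and 1261 (-0.66 ± 0.1, limma adjusted p = 0.000766), kept its call in each of those fits and lost it with the mean of its probe sets (-0.53, adjusted p = 0.402). The count of this list was 1 without KO vehicle replicate 2 and 5 without WT db-cAMP replicate 1 or 2.

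**Figure D4:**
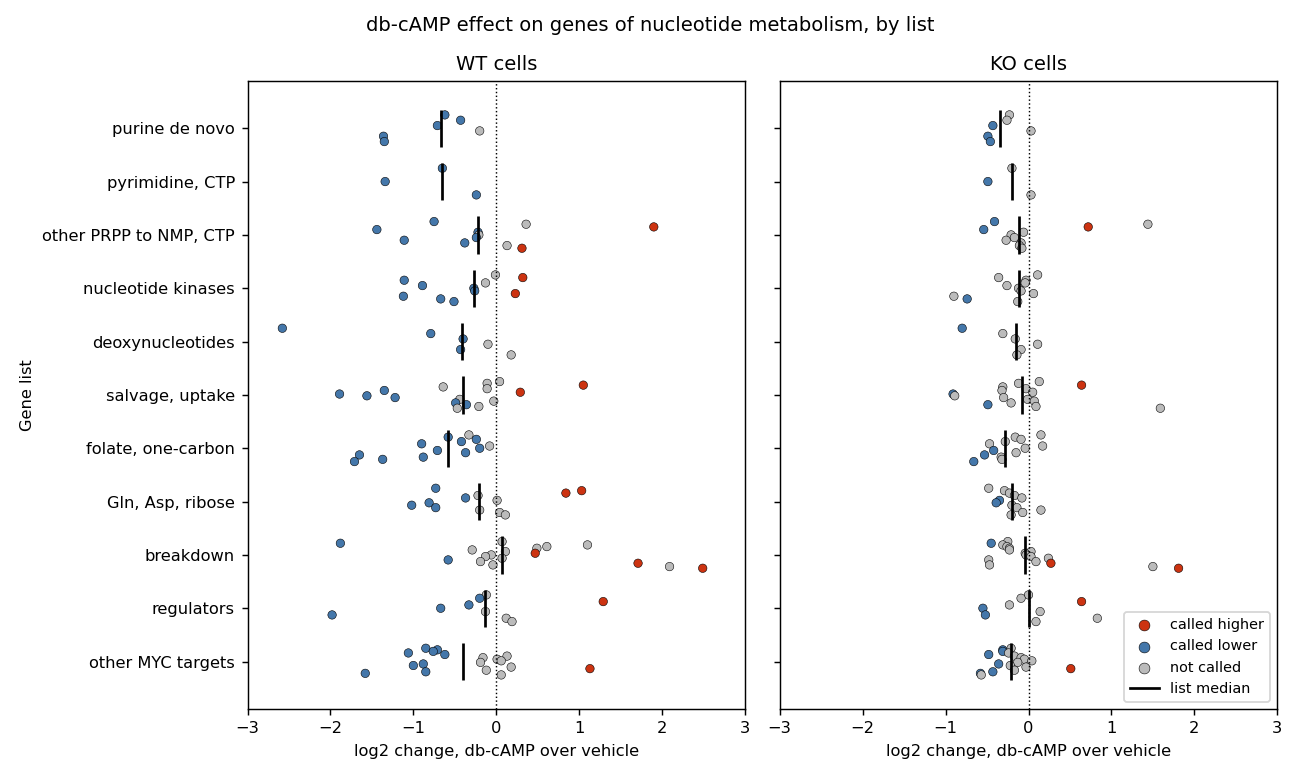
Log2 change with db-cAMP (horizontal axis) of each tested gene in 11 lists (vertical axis), in WT cells (left) and KO cells (right); red was called higher, blue called lower, grey not called, and the bar is the list's median. In WT cells 11 of 13 one-carbon genes are blue, and the breakdown list holds both Xdh at 2.49 and Ampd2 at -1.88.

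Of 6 deoxynucleotide synthesis genes 4 fell in WT cells and none rose, at a median of -0.41. Dctd, which deaminates dCMP towards thymidylate, read 1215 and 1099 with vehicle and 174 and 205 with db-cAMP, and 1006 and 939 against 597 and 518 in KO cells. Its change was -2.58 ± 0.14 in WT cells (limma adjusted p = 1.12e-08) and -0.8 ± 0.14 in KO cells (0.00263). Dctpp1, which breaks down dCTP, fell by 0.79 and Dut, which makes dUMP, by 0.4. Rrm2, a subunit of ribonucleotide reductase, stood at -0.43 and lost its call without WT db-cAMP replicate 1 (0.0824) or WT vehicle replicate 1 (0.0703). It read 1227 and 1166 in WT with vehicle and 567 and 542 in KO with vehicle. Tyms did not pass the filter on dim genes.

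Of 11 nucleotide kinases 7 fell and 2 rose in WT cells. The 7 became 4 without WT db-cAMP replicate 2, and the 2 became 0 or 1 without any array but WT db-cAMP replicate 1. Dtymk, which phosphorylates dTMP, read 4724 and 4610 with vehicle and 2741 and 2296 with db-cAMP, a change of -0.89 ± 0.09 (limma adjusted p = 2.77e-06). Nme4 and Ak4, mitochondrial kinases with signals of at most 312, fell by 1.12 and 1.11. Nme6 stood at -0.67 and lost its call without WT db-cAMP replicate 2 (0.218) or WT vehicle replicate 2 (0.191).

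Of 16 salvage and uptake genes 6 fell and 2 rose in WT cells, at a median of -0.4. The 2 became 1 without WT db-cAMP replicate 1 or WT vehicle replicate 2. The nucleoside transporter Slc29a1 read 1770 and 1456 with vehicle and 334 and 550 with db-cAMP (-1.89 ± 0.19, limma adjusted p = 3.15e-06). Mtap, which returns adenine from methylthioadenosine, fell by 1.35, and the transporter Slc29a3 by 1.22, a call lost with the mean of its probe sets (0.0584). Slc29a2 stood at -1.56 with signals of at most 144, and its call was lost without 5 of the 8 arrays (0.0789 to 0.277), these being WT vehicle replicates 1 and 2, WT db-cAMP replicate 1 and both KO vehicle replicates. Hprt, which salvages hypoxanthine and guanine, read 13510 and 14149 with vehicle and 12487 and 13224 with db-cAMP, groups that did not overlap but differed by -0.11 (limma adjusted p = 0.258). Dck, in this list but not among the genes picked for naming, moved the other way. It read 2244 and 2181 with vehicle and 4441 and 4766 with db-cAMP in WT cells, and 2156 and 1955 against 3302 and 3114 in KO cells.

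Of 12 genes for the supply of glutamine, aspartate and ribose 5 fell and 2 rose in WT cells. The glutamine carrier Slc1a5 read 2482 and 2772 with vehicle and 1325 and 1256 with db-cAMP (-1.02 ± 0.09, limma adjusted p = 1.32e-06), and Rpia, which makes ribose 5-phosphate, fell by 0.81. Glul, glutamine synthetase, rose by 1.03 and Got1, the cytosolic aspartate aminotransferase, by 0.84. In KO cells Glul and Got1 stood at -0.29 and -0.23, neither called, and their interactions of -1.32 ± 0.21 and -1.07 ± 0.12 were (limma adjusted p = 0.00106 and 0.000133).

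Of 17 breakdown genes 3 rose and 2 fell in WT cells, at a median of 0.07. Xdh, which oxidises hypoxanthine to urate, read 243 and 282 with vehicle and 1361 and 1634 with db-cAMP in WT cells, and 286 and 262 against 930 and 1025 in KO cells. Its change was 2.49 ± 0.14 in WT cells (limma adjusted p = 2.12e-08) and 1.81 ± 0.14 in KO cells (3.66e-06). Samhd1, which degrades deoxynucleotides, rose by 1.71 in WT cells, from 4415 and 3962 to 13504 and 13811. It read 1571 and 1615 in KO with vehicle. Ampd2, which turns AMP back into IMP, fell from 7113 and 7341 to 1917 and 2006 in WT cells, a change of -1.88 ± 0.07 (limma adjusted p = 5.59e-10). In KO cells it read 6356 and 6308 with vehicle and 4800 and 4497 with db-cAMP (-0.45 ± 0.07, limma adjusted p = 0.00153). Nt5m stood at -0.58 and lost its call without WT db-cAMP replicate 1 (0.0997) or WT vehicle replicate 1 (0.119).

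Of 9 regulators of the pathway 4 fell and 1 rose in WT cells. The 4 became 2 without WT db-cAMP replicate 2 or without either of the WT vehicle arrays. Myc read 9547 and 10396 with vehicle and 2448 and 2587 with db-cAMP in WT cells, and 8257 and 8370 against 5798 and 5756 in KO cells. The changes were -1.98 ± 0.07 (limma adjusted p = 3.55e-10) and -0.52 ± 0.07 (0.000421), and the interaction was 1.46 ± 0.1 (3.64e-06). Myc thus fell in both genotypes and less in KO cells, as Ppat, Pfas and Ctps did. Genes of other lists, such as Dctd, Ampd2 and Dhodh, did so as well. In Gart and Atic the KO change was 0.6 and 0.61 of the WT change, and Paics and Umps each stood at 0.03 in KO cells. No correlation is given over these 4 groups, and a link with Myc was not tested. Max, the partner of MYC, stood at -0.33 and lost its call without WT db-cAMP replicate 2 (0.217), WT vehicle replicate 1 (0.112) or WT vehicle replicate 2 (0.0603). Mlx, a related factor, fell by 0.67, and Hif1a rose by 1.29.

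Of 18 other MYC targets, chosen from outside the pathway, 9 fell and 1 rose in WT cells, a smaller share than the 8 of 9 above with no test of the difference. Srm, spermidine synthase, read 14468 and 13140 with vehicle and 4904 and 4359 with db-cAMP (-1.58 ± 0.09, limma adjusted p = 2.19e-08), and the nucleolar genes Ddx18 and Nop58 fell by 1.06 and 1. Odc1, ornithine decarboxylase, rose from 22863 and 21923 to 46361 and 52085 (1.13 ± 0.07, limma adjusted p = 4.16e-08). Odc1 and Srm, neighbours in polyamine synthesis and both MYC targets, therefore moved in opposite directions. In KO cells 6 of the 18 fell, against 3.68% of all genes tested, or 2 without KO vehicle replicate 2 or KO db-cAMP replicate 1 and 3 without KO db-cAMP replicate 2. The count that rose in WT cells was 2 without WT vehicle replicate 2.

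In KO cells, where 3.68% of all genes tested were called lower and 4.7% higher, each of the other lists had 1 to 3 calls. Counts of lower and higher genes were 2 and 1 of the 11 other enzymes from PRPP, 1 and 0 of 11 kinases, 1 and 0 of 6 deoxynucleotide genes, 2 and 1 of 16 for salvage and uptake, 2 and 0 of 12 for the supply of glutamine, aspartate and ribose, 1 and 2 of 17 for breakdown, and 2 and 1 of 9 regulators. Dhodh stood at -0.54 (limma adjusted p = 0.00808) and Adss at -0.41 (0.00408) in KO cells. Dhodh lost that call without KO vehicle replicate 2 (0.0786) or KO db-cAMP replicate 1 (0.106), and Adss without KO vehicle replicate 2 (0.0603) or KO db-cAMP replicate 2 (0.0635). Dctd, Myc, Ampd2, Ctps2, Xdh and Odc1 kept theirs in all 8 fits that left out 1 array. Without an intensity trend Dctd (0.0589), Myc (0.0604), Ampd2 (0.081) and Odc1 (0.0761) lost theirs, as did Ampd2 with the mean of its probe sets (0.0937). Left-out arrays moved the small counts of lower genes. Those of the other enzymes from PRPP became 0 or 1 without KO vehicle replicate 2 or KO db-cAMP replicate 2, and those of salvage became 1 without KO vehicle replicate 2 or KO db-cAMP replicate 1. The kinase count became 0 without KO vehicle replicate 1 or 2 or KO db-cAMP replicate 2 and 3 without either WT db-cAMP array, and the deoxynucleotide count became 2 without either WT db-cAMP array. The supply count became 0 or 1 without any WT vehicle or KO array, and the regulator count became 1 without WT vehicle replicate 1 or any KO array. Of the higher genes, the 2 of breakdown became 1 without any KO or WT db-cAMP array, and the 1 of the other enzymes from PRPP became 2 without KO vehicle replicate 2.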

How the data were processed

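RNA of CD4 T cells was measured on 8 arrays, 2 in each of 4 groups, taken from the titles. The values deposited, per the submitters' processing notes, came from MAS5, in a version that the sources used here do not name, and are on a linear intensity scale. Biotinylated cRNA was made with a 3' IVT kit, per the labels' protocols. The equal trimmed means show that the authors had scaled each array's intensity values. MAS5 signals subtract mismatch signal, so that dim values are noisy.

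Of 45101 probe sets, 64 were controls, and 34945 had 1 gene symbol, 932 several and 9160 none in the platform annotation, which can be old. A gene was represented by the probe set whose mean log2 signal was highest. Genes above their array's median on at least 2 arrays were tested, 12091 of 18193, on log2(intensity + 5.48), the offset being the 10th percentile of all values. All 4 groups entered 1 limma fit (R 4.3.3, limma 3.58.1; lmFit, eBayes with intensity trend; 4 residual degrees of freedom), with 5 contrasts, Benjamini-Hochberg adjustment over all genes tested and a threshold of 0.05. Fold changes on this scale understate changes of dim genes. With 2 arrays in a group, their number limits the precision. Scripts were tested on simulated data.

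The members and the lists were chosen with earlier results of these data known. Of each list, up to 4 genes with the largest WT change among those called in any comparison were named, with 15 genes named whatever their values. Arrays are named by group and replicate. Alternatives were another scaling, offset, filter, probe set rule, variance model, a replicate block, only the groups compared, and each array left out. No probe set had Impdh2 as its single gene symbol in the annotation used, so it was not analysed here. Probe sets with several symbols were set aside before genes were matched. Figures were drawn with matplotlib 3.10.9.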

Additional observations from a re-analysis of the deposited data

Results flagged for a closer look

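The effect of db-cAMP differed between KO and WT cells, by limma's interaction test, in 30 of the 53 genes named or belonging to the set. Over all genes tested 11.8% were called, 6.7% above 0 and 5.09% below 0. Most of the 44 named genes outside the set were picked for a large change in WT cells among genes called in some comparison, so the 2 shares cannot be compared. It was above 0 (KO change minus WT change, log2 ± SE) in 23 and below 0 in 7. No group held the 4 arrays needed to test for an outlying array.

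Among the nucleotide synthesis genes the difference was 0.9 ± 0.11 for Ppat, 0.87 ± 0.13 for Pfas, 0.86 ± 0.12 for Ctps and 0.38 ± 0.1 for Adsl. In the enzymes beside them it was 0.9 for Dhodh, 0.84 for Prps1l3, 0.64 for Dtymk, 1.78 for Dctd and 0.49 for Dctpp1, and -1.18 for Ctps2. In salvage and uptake it was 0.98 for Slc29a1, 1.03 for Mtap and 0.91 for Slc29a3.

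In the supply lists it was 1.05 ± 0.14 for Slc25a32, 1.12 ± 0.17 for Shmt1, 1.05 ± 0.17 for Slc19a1, 0.42 ± 0.11 for Mthfd1, 0.82 ± 0.13 for Slc1a5 and 0.43 ± 0.12 for Rpia. The other probe sets of Shmt1 did not all show it. In the fit of all probe sets they stood at 1.67 (limma adjusted p = 0.00014), 0.47 (0.246) and 0 (0.996). The difference was -1.32 ± 0.21 for Glul and -1.07 ± 0.12 for Got1, both called higher with db-cAMP in WT cells and not called in KO cells. Among breakdown genes it was 1.43 for Ampd2, -1.43 for Samhd1 and -0.67 for Xdh. Among regulators and other MYC targets it was 1.46 for Myc, -0.66 for Hif1a, 1 for Srm, -0.63 for Odc1, 0.83 for Ddx18 and 0.78 for Nop58. With the mean of probe sets, several of the calls in this section were lost. Among them were Slc29a3 (0.03, limma adjusted p = 0.983), Slc25a32 (0.67, 0.426) and Slc19a1 (0.77, 0.362). Ddx18 (0.45, 0.168) and Ctps2 (0.33, 0.718) lost theirs as well.

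Some of these differences rest on single arrays. Without 1 array, the adjusted p reached 0.142 for Adsl, 0.102 for Dctpp1, 0.0863 for Mthfd1, 0.148 for Rpia, 0.107 for Slc29a1 and 0.194 for Xdh. Each of these genes lost its call in 5 or 6 of the 8 fits that left out 1 array, including those without WT vehicle replicate 1, KO vehicle replicate 1 and KO db-cAMP replicate 2.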

How the results depend on the processing

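With 2 arrays in a group, leaving 1 out leaves a lone array that is assumed to vary like the other groups. The calls on Ppat, Gart, Adsl, Pfas and Ctps in WT cells held under all 19 alternatives, and 7 to 8 of the 9 genes were called when 1 array was left out. Over such fits the count of the 9 genes called was 2 to 4 in KO cells, 0 to 2 for KO against WT under vehicle, 3 to 6 under db-cAMP and 3 to 4 for the interaction. The count over all genes was 3451 to 4129 in WT cells, 446 to 1089 in KO cells, 617 to 1391 under vehicle, 2438 to 3580 under db-cAMP and 891 to 1336 for the interaction.

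Moderating the variances without an intensity trend called 0 of the 9 genes in KO cells, 0 under vehicle, 3 under db-cAMP and 2 by interaction, and 188, 251 and 261 genes over all in KO cells, under vehicle and by interaction, against 1013, 1311 and 1425. The cause was not tested. With every probe set tested, which adds rows, 6890 were called in WT cells, 2733 under vehicle and 6431 under db-cAMP, against 4233, 1311 and 3529 genes. With the mean of probe sets, which takes in dim ones, 505, 799 and 717 genes were called in KO cells, under vehicle and by interaction, and 2 of the 9 under vehicle. An equal 75th percentile called 3 of the 9 under vehicle and 3 under db-cAMP.

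Signs turned with the mean of probe sets in Atic (KO against WT 0.35 under vehicle and 0.50 under db-cAMP), Ctps2 (-0.61 under vehicle, interaction 0.33), Gmps (0.22 under vehicle, 0.64 under db-cAMP), Dut (0.96 under db-cAMP) and Hif1a (interaction 0.065). The cause was not tested.

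Deviations of arrays with the same replicate number correlated at -0.0199 to 0.0206, so the numbers were not taken as pairs. With the replicate number as a block, 2 of the 9 genes were called under vehicle, Umps lost its call in WT cells (0.0558), and no other of the 9 changed a call. Of the 44 named genes of the lists, 42 were called in WT cells and 31 of them under every alternative. In KO cells 17 were called and 2, Ctps2 and Xdh, kept the call throughout. By interaction 26 were called, and Dctd, Got1, Ampd2, Samhd1 and Myc kept the call throughout. Dim probe sets limit what these arrays can show, such as for Nme4, Ak4 and Slc29a2.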
